A study of Mus musculus with 6 samples.

Results

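The 32 genes described here are interferon-stimulated genes of the mouse, a set that most nucleated cells switch on when type I interferon reaches them. They were taken by symbol from a list, without the p200 family, and all 32 were found among the 43629 genes of the count table. Their transcripts were counted in T cells that had infiltrated subcutaneous B16-OVA tumours of C57BL/6 mice, harvested on day 14 and pooled before the sort. The tumour line, B16-OVA, is melanoma that carries ovalbumin as a model antigen. The study compared 2 groups of 3 libraries, L-Pha low and L-Pha high, sorted on binding of L-Pha, a bean lectin that recognises branched N-glycans on the cell surface. The labels name no genetic change in the mice and no drug, and both groups came from tumour-bearing mice of 1 strain. The design text calls the cells CD8+ and TCR+, while the extraction text names a sort on TCRB and CD3, and the age of the mice is not given in the sources used here. Whether the 3 libraries of each group stem from separate tumour pools is not given in the labels, so every p-value reflects only how far these libraries differed, and that spread may be technical.

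Total counts ran from 2610729 to 3521117 per library. All 17 T cell markers had counts, with Cd8a at 136 ± 80.1 CPM in L-Pha low and 124 ± 35.2 CPM in L-Pha high (SD, n = 3 each). Levels are given as CPM, counts scaled to library size with edgeR's TMM factors, here and throughout. L-Pha low 1 had the highest sum of 8 neutrophil markers, 38.2 CPM, against 2.41 to 13.6 CPM in the other libraries. None of these 8 markers passed the count filter. The 2 libraries numbered 3 stood apart in the summed T cell and melanoma markers. Their 17 T cell markers summed to 393 CPM in L-Pha low 3 and 528 CPM in L-Pha high 3, against 790 to 1148 CPM in the other libraries. Their 8 melanoma markers summed to 15486 and 16175 CPM, against 9712 to 13536 CPM in the others. Most of each sum was Dct, with 13488 and 14128 CPM against 7970 to 12081 CPM. Mlana, Mitf and Slc45a2 were also highest in these 2 libraries, while Tyr, Tyrp1, Pmel and Sox10 were not. Melanoma transcripts were thus present in every library, and which cells gave each interferon-stimulated transcript was not tested.

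Type I interferons bind the receptor chains Ifnar1 and Ifnar2. The kinases Jak1 and Tyk2 then act on Stat2, which joins Irf9 in a complex that binds a short promoter element, the interferon-stimulated response element or ISRE. The induced genes encode proteins that sense, bind or degrade viral RNA, and others that amplify or end the response. In tumours the same programme can be on in the tumour cells, in myeloid cells and in T cells, and interferon-gamma from T cells induces part of it.

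RefSeq promoters on GRCm38.p6, covering 250 bases before and 50 bases from the transcription start on, were at hand for 24 of the 32 genes (29 promoters). Those of Oas2, Mx1, Mx2, Zbp1, Usp18, Rtp4, Ifi27l2a and Parp14 were not used here. The ISRE was searched on both strands as GAAA, any 2 bases and GAAA, and 13 of the 24 genes held a match in at least 1 promoter. By promoter, the share was 14 of 29 (48.3%), against 3.44% of all 32851 promoters of that length. The binding site of Stat dimers, searched as TTC, any 3 bases and GAA, stood in 5 of the 29 (17.2%) and in 8.3% of all. A match is a description of letters and not a shown binding site, and the ISRE match of Bst2 overlaps its Stat match by 3 bases. The 7 stretches of 60 bases below show ISRE matches of genes whose levels are compared in the next paragraphs, written 5′ to 3′ on the strand of the gene. The ISRE matches of either strand that lie wholly within a stretch are in capitals.
Isg15 (chr4:156200850-156200909, minus strand, 91 to 32 bases before the start): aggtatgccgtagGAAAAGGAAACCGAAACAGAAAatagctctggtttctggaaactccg
Bst2 (chr8:71537562-71537621, minus strand, 149 to 90 bases before the start): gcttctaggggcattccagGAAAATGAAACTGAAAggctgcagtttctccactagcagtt
Rsad2 (chr12:26456538-26456597, minus strand, 145 to 86 bases before the start): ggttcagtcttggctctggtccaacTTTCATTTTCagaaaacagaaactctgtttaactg
Oas1a (chr5:120907526-120907585, minus strand, 60 to 1 bases before the start): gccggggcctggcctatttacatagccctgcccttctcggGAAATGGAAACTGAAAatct
Ifit1 (chr19:34640779-34640838, plus strand, 110 to 51 bases before the start): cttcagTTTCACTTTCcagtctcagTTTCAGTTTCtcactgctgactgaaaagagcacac
Ifit3 (chr19:34583382-34583441, plus strand, 147 to 88 bases before the start): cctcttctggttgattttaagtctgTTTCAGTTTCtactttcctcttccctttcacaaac
Ifit3b (chr19:34607778-34607837, plus strand, 179 to 120 bases before the start): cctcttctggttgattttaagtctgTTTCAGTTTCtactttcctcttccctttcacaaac

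Isg15 carried 3 overlapping matches in a row and Bst2 and Oas1a carried 2, while the 2 matches of Ifit1 lay apart. Ifit3 and Ifit3b also held 2 ISRE matches each that lay apart. The first of them began 156 bases before the start in Ifit3 and 188 in Ifit3b, and only its last base falls in the stretch shown. The stretches of Ifit3 and Ifit3b were identical in 60 of 60 bases, and the longest identical run of the 2 promoters was 169 bases. The matches of Ddx58 and Ifih1 lay after the start. No match was found in the promoters of Irf7, Irf9, Slfn1, Slfn2, Ifi44, Xaf1, Oasl1 or Oasl2, nor an ISRE match in those of Ifit2, Isg20 or Ifi35.

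**Figure D1:**
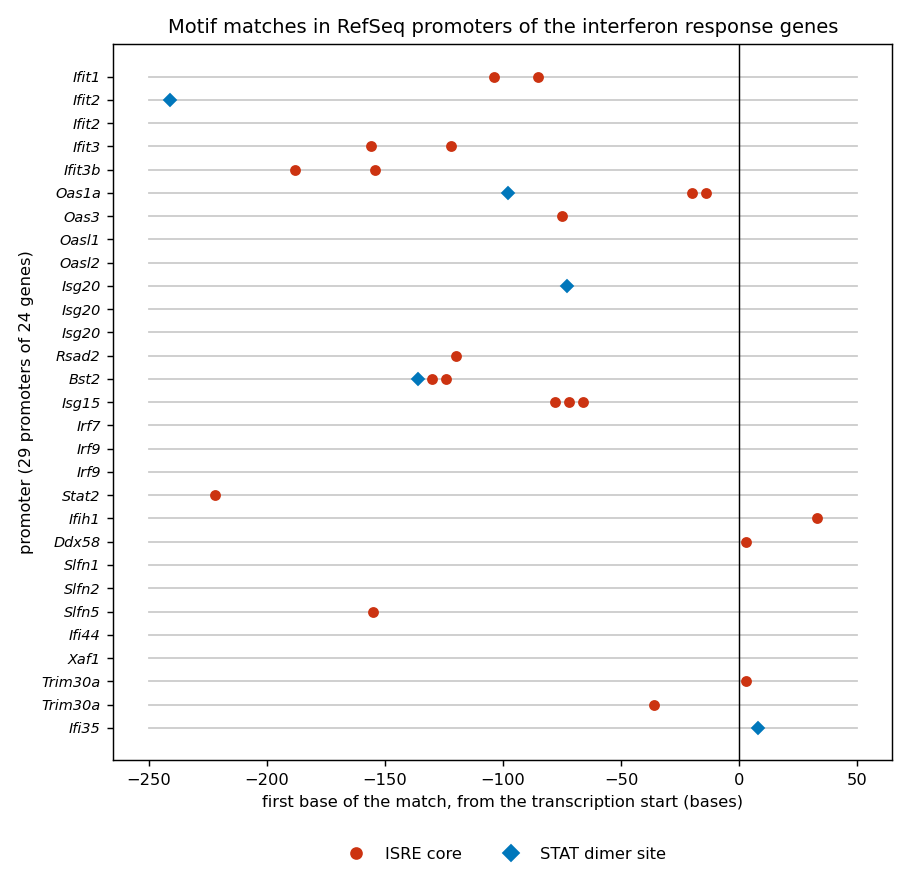
Position of each motif match in the 29 RefSeq promoters of 24 interferon-stimulated genes, with 1 line per promoter and the distance in bases of the first base of the match from the transcription start on the x axis. Circles are ISRE matches and diamonds are Stat dimer matches, and most ISRE matches lie between the start and 188 bases before it, with that of Stat2 at 222 bases.

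None of the tested interferon-stimulated genes passed the adjusted threshold between L-Pha high and L-Pha low cells. Of the 32 genes 24 passed the count filter, and by edgeR's quasi-likelihood test 0 were higher and 0 lower at an adjusted p under 0.05, where 0% of the 11183 tested genes were called higher and 0.00894% lower. The adjusted p was 1 for each of the 24. DESeq2 called 0 of them as well, where it called 0.032% of its tested genes higher and 0.0915% lower, and limma-voom called 0 of them and 0% of all genes. At an unadjusted p under 0.05, 2 of the 24 were lower (Ifi27l2a and Zbp1) and 0 higher, with 1.97% and 1.82% of all tested genes. With no count filter all 32 were fitted, and again 0 were called, where 20 of 21866 genes were called higher and 27 lower. Point values were lower in L-Pha high for 15 of 24 (62.5%), against 50.7% of all tested genes, and higher for 9, against 49.3%. For 8 of the 24 the sign turned when 1 library was left out. The median log2 fold change, L-Pha high minus L-Pha low, was -0.14, against -0.01 over all tested genes, and single genes ran from -1.23 to 0.54. In bulk RNA, fewer cells of a type and less of a transcript per cell cannot be told apart.

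The 24 tested genes did not move as 1 block across the libraries. After centring each gene on its mean over the 6 libraries on a log2(CPM + 0.5) scale, the median gene stood at 0.13 in L-Pha low 1, 0.01 in L-Pha low 2 and 0.12 in L-Pha low 3. In L-Pha high 1, 2 and 3 it stood at -0.08, -0.21 and -0.02. All 3 L-Pha high medians were thus below all 3 L-Pha low medians, by small steps, while the median over all tested genes lay between 0.01 and 0.03 in each library. Within each library the genes spread widely, for example from -1.81 to 1.53 in L-Pha low 1. L-Pha low 1 held the highest value of 7 genes and L-Pha high 3 that of 6, and L-Pha high 2 held the lowest value of 6. All 32 genes together took 0.0423% to 0.0722% of the counts of a library, with the highest share in L-Pha high 3 (exact binomial 95% interval 0.0691% to 0.0754%, for counting error only). Summed, they reached 517 ± 41.5 CPM in L-Pha low and 505 ± 151 CPM in L-Pha high. Without Bst2, which gave most of the spread in L-Pha high, the sums were 432 ± 27.2 and 382 ± 43.6 CPM, and the groups still overlapped.

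**Figure D2:**
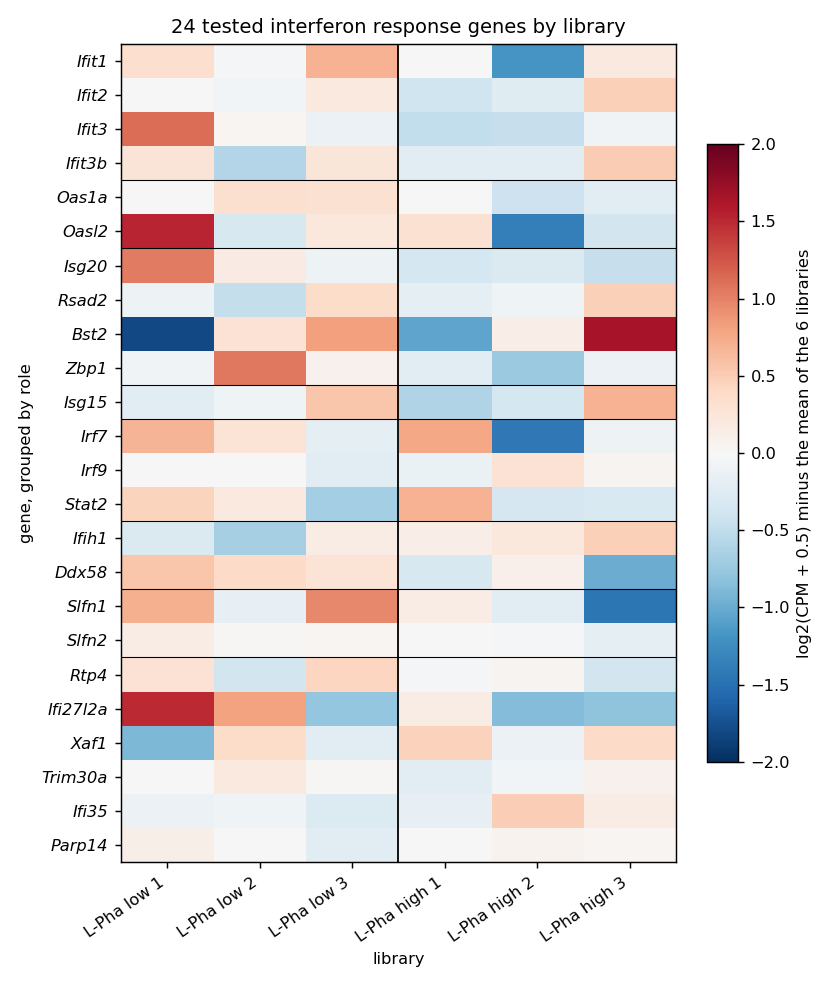
Centred level of the 24 tested interferon-stimulated genes (rows, grouped by role) in the 6 libraries (columns), as log2(CPM + 0.5) minus the mean of the 6 libraries of that gene. Red is above and blue below that mean, and Bst2 and Oasl2 show the widest ranges between libraries.

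The precision differed between genes. For 9 of the 24 genes (37.5%) the 95% interval of the fold change stayed within 2-fold in both directions, against 51.6% of all tested genes. These were Ifit2, Ifit3b, Isg15, Rsad2, Irf9, Slfn2, Trim30a, Ifi35 and Parp14. For 20 of the 24 it stayed within 4-fold. For the other genes the interval reached past 4-fold, so larger differences were not excluded.

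**Figure D3:**
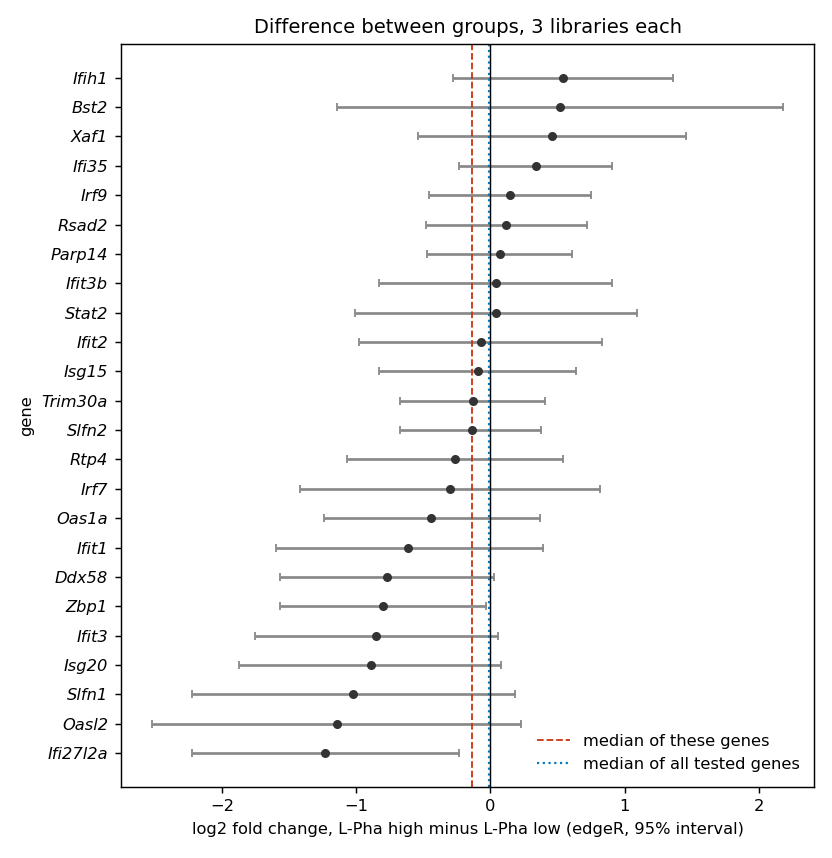
Log2 fold change of the 24 tested interferon-stimulated genes, L-Pha high minus L-Pha low, by edgeR, with 95% intervals as bars. The dashed line is the median of these genes at -0.14 and the dotted line the median of all tested genes at -0.01, and the intervals of 22 of the 24 genes include 0.

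None of the 3 transcription factors of the response was called, and the groups overlapped for each. Irf9, the DNA-binding partner of Stat2 (ENSMUSG00000002325, GRCm38 chromosome 14, 55603571 to 55610030), had 19.1, 18.8 and 16.4 CPM in L-Pha low 1, 2 and 3 and 17.3, 23.2 and 19.7 CPM in L-Pha high 1, 2 and 3. The groups overlapped, with a log2 fold change of 0.15 (SE 0.282, 95% interval -0.46 to 0.75). Its gene model shares exonic bases with Rnf31 on the same strand, and the authors' counting gives a read to every gene it overlaps, so the 2 genes share reads. Stat2 had a log2 fold change of 0.04 (SE 0.489), which turned to -0.23 without L-Pha low 3 and to -0.44 when L-Pha high 1 was dropped. Irf7, which amplifies interferon production, had one of -0.30 (SE 0.521), and its highest library, L-Pha high 1, stood 5.43-fold above its lowest, L-Pha high 2. Leaving out L-Pha high 2 turned the value of Irf7 to 0.11, and leaving out L-Pha high 1 moved it to -1.01.

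The 2 cytosolic RNA sensors had opposite point values. Ddx58, which encodes RIG-I (ENSMUSG00000040296, chromosome 4, 40203773 to 40239828), had 14.6, 12.9 and 11.9 CPM in the L-Pha low libraries and 7.72, 10.5 and 4.66 CPM in the L-Pha high libraries. Every L-Pha high library lay below every L-Pha low library (log2 fold change -0.77, SE 0.372, 95% interval -1.57 to 0.03, edgeR adjusted p = 1). Ifih1, which encodes MDA5, the sensor of long double-stranded RNA (ENSMUSG00000026896, chromosome 2, 62595798 to 62646255), had 6.47, 4.86 and 8.95 CPM in L-Pha low and 8.79, 9.34 and 11.3 CPM in L-Pha high. It had the largest positive log2 fold change of the 24 tested genes, 0.54 (SE 0.382). Without L-Pha low 2 it was 0.34, where Xaf1 (0.86), Bst2 (0.60) and Ifi35 (0.38) exceeded it. Bst2 also exceeded it without L-Pha low 3 (1.07 against 0.79) and without L-Pha high 1 (0.96 against 0.61). Without L-Pha high 2 it was 0.56, below Bst2 (0.71) and Xaf1 (0.62). For Ifih1, L-Pha low 3 lay above L-Pha high 1. The difference between the 2 sensors was not tested.

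The IFIT proteins bind RNA that lacks the marks of the host's own messages. Ifit3 (ENSMUSG00000074896, chromosome 19, 34583531 to 34588731) had 18.1, 8.34 and 7.46 CPM in L-Pha low and 5.59, 5.72 and 7.66 CPM in L-Pha high (log2 fold change -0.85, SE 0.423). The value rested on L-Pha low 1 and shrank to -0.32 once that library was left out. Its neighbour Ifit3b, whose ISRE stretch is the same letter for letter, had 9.71, 5.21 and 9.69 CPM in L-Pha low and 6.93, 6.93 and 11.7 CPM in L-Pha high (log2 fold change 0.04, SE 0.406, turning to -0.20 if L-Pha low 2 is dropped and -0.24 if L-Pha high 3 is). So L-Pha low 1 was the highest library of Ifit3 but not of Ifit3b. In the last 300 bases of their transcripts, where 3' libraries take most reads, the 2 genes had no common stretch of 50 bases at 97% identity. The 3' end of Ifit3b did match 266 other genes over up to 59 bases, so part of its reads may be shared with them. Summed into 1 row, they had a log2 fold change of -0.40. For Ifit1 the log2 fold change was -0.61 (SE 0.463), and for Ifit2 it was -0.07 (SE 0.421), with values up to 0.11 when single libraries were left out.

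The OAS enzymes, which make short oligoadenylates that activate RNase L, were thinly covered, and 2 of the 5 were tested. Oas1a (ENSMUSG00000052776, chromosome 5, 120896256 to 120907521) had 7.44, 9.38 and 9.32 CPM in L-Pha low and 7.46, 5.42 and 6.33 CPM in L-Pha high, with L-Pha low 1 level with L-Pha high 1 (log2 fold change -0.44, SE 0.376). Its relative Oas1g had similar levels, 6.47, 8.34 and 9.69 CPM in L-Pha low and 6.93, 4.52 and 7 CPM in L-Pha high. The 2 genes may share reads, though the last 300 bases of Oas1a matched no other gene over 50 bases at 97% identity. Summed into 1 row they had a log2 fold change of -0.42. Oasl2, an OAS-like protein, had a log2 fold change of -1.14 (SE 0.641), and -0.32 without L-Pha low 1. Oas2, Oas3 and Oasl1 had 13, 26 and 26 counts in all 6 libraries together and did not pass the count filter.

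Of the Mx GTPases, which block viral replication, neither passed the count filter. Mx1, of which C57BL/6 mice carry an allele that gives no functional protein, had 20 counts in L-Pha low and 10 in L-Pha high. Mx2 had 0, 1 and 1 counts in the L-Pha low libraries and 2, 6 and 4 in the L-Pha high libraries. It was the only gene of the set whose L-Pha high libraries all lay above the L-Pha low libraries, with 12 counts against 2, a ratio of 5.15 with an exact 95% interval of 1.15 to 47.4 for counting error only. With no count filter its adjusted p was 0.8504 by edgeR.

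Of the antiviral effectors, Zbp1 and Isg20 had groups that did not overlap, with the L-Pha high libraries below. Together with Ddx58 and Slfn2 they made up the 4 of 24 tested genes (16.7%) with groups separated downward, where 4.18% of all tested genes were separated so, and 0 were separated upward, where 4.23% were. None passed the test. Zbp1, a sensor of Z-form nucleic acid that can trigger cell death (ENSMUSG00000027514, chromosome 2, 173206612 to 173218923), had 15.5, 34.4 and 17.5 CPM in L-Pha low and 14.1, 9.64 and 15 CPM in L-Pha high. L-Pha low 2 stood far above the rest, while the nearest libraries of the 2 groups were close (log2 fold change -0.80, SE 0.359, 95% interval -1.57 to -0.03, edgeR adjusted p = 1, but -0.36 once L-Pha low 2 was left out). Isg20, an exonuclease that degrades RNA (ENSMUSG00000039236, chromosome 7, 78913424 to 78920362), had 11.3, 5.90 and 4.85 CPM in L-Pha low and 4.00, 4.22 and 3.66 CPM in L-Pha high. Its log2 fold change of -0.89 (SE 0.456) was -0.44 without L-Pha low 1.

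**Figure D4:**
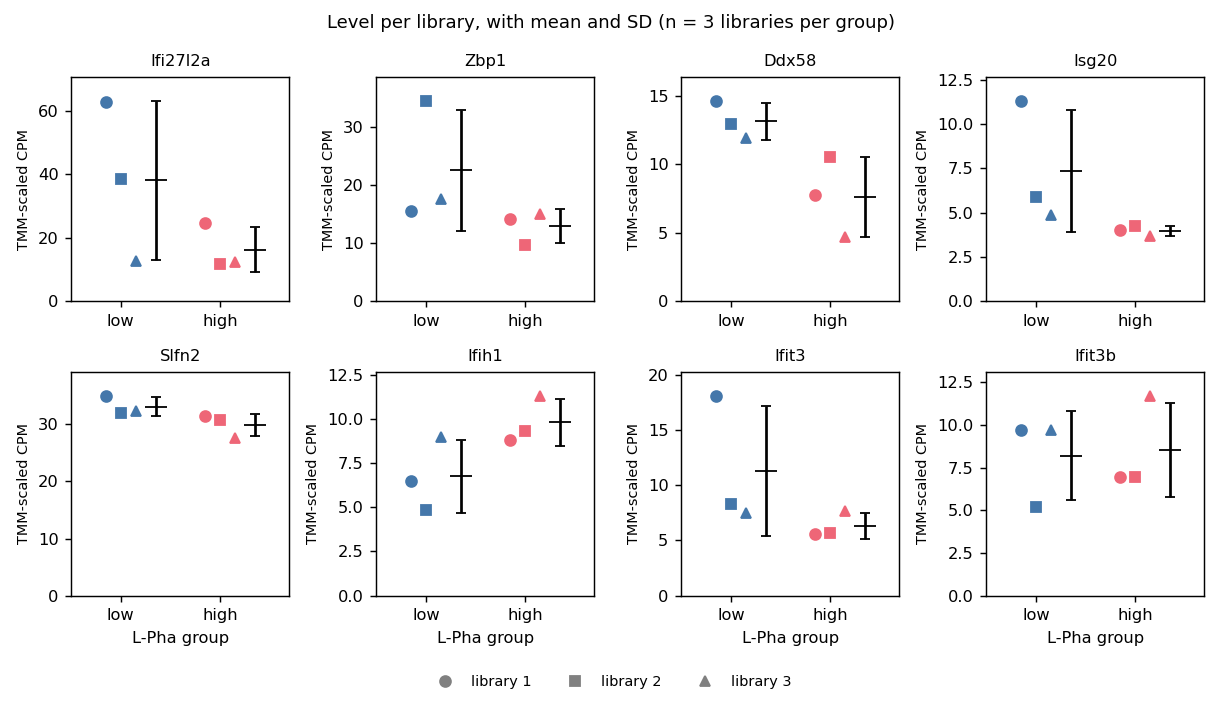
Level in CPM (y axis, from 0) of 8 interferon-stimulated genes in the L-Pha low and L-Pha high libraries, with 1 point per library, the shape giving the library's number, and the mean and SD of 3 libraries beside them. Zbp1, Ddx58, Isg20 and Slfn2 are separated between the groups and Ifi27l2a, Ifih1, Ifit3 and Ifit3b overlap.

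Bst2 spread more widely among the libraries of each group than between the groups. It encodes tetherin, a membrane protein that holds budding virus particles on the cell surface (ENSMUSG00000046718, chromosome 8, 71534264 to 71537437). It had 22.0, 95.5 and 139 CPM in L-Pha low 1, 2 and 3 and 37.3, 85.6 and 246 CPM in L-Pha high 1, 2 and 3, an 11.2-fold range. In both groups library 1 was lowest and library 3 highest, and the groups overlapped (log2 fold change 0.52, SE 0.733, 95% interval -1.14 to 2.18). Without L-Pha high 3 the log2 fold change turned to -0.48, and without L-Pha low 1 it was 0.07. The 8 melanoma markers summed to 9712, 10245 and 15486 CPM in L-Pha low and 10800, 13536 and 16175 CPM in L-Pha high. These sums had the same order within each group as Bst2. Most of each sum was Dct, with 7970, 8243 and 13488 CPM in L-Pha low and 9011, 12081 and 14128 CPM in L-Pha high. Mitf had that order too, while Tyr, Tyrp1, Pmel, Mlana, Sox10 and Slc45a2 did not have it in both groups. A melanoma covariate was chosen after these values were seen. It was the mean log2(CPM + 0.5) of the 8 markers, which weighs each marker equally, and not their sum. With it the log2 fold change of Bst2 was 1.11 and Bst2 was not called.

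Isg15 and Rsad2 were likewise highest in the 2 libraries numbered 3. Isg15, a ubiquitin-like protein joined to other proteins (ENSMUSG00000035692, chromosome 4, 156199424 to 156200818), had 42.7, 47.6 and 74.2 CPM in L-Pha low and 33.0, 39.5 and 82.0 CPM in L-Pha high. The log2 fold change was -0.09 (SE 0.341, 95% interval -0.83 to 0.64), and its sign changed with the scaling, to 0.01 with library totals alone. Rsad2, which encodes viperin, a radical SAM enzyme that blocks viral RNA synthesis, ran from 41.3 to 74.2 CPM in L-Pha low and from 50.1 to 80.0 CPM in L-Pha high (log2 fold change 0.12, SE 0.281). That value turned to -0.07 without L-Pha low 2 and to -0.11 without L-Pha high 3. In the same 2 libraries the T cell markers were lowest. The part of melanoma or other cells in these levels was not tested. Usp18, which removes Isg15 from proteins and dampens the receptor, had 38 counts in all and did not pass the count filter.

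**Figure D5:**
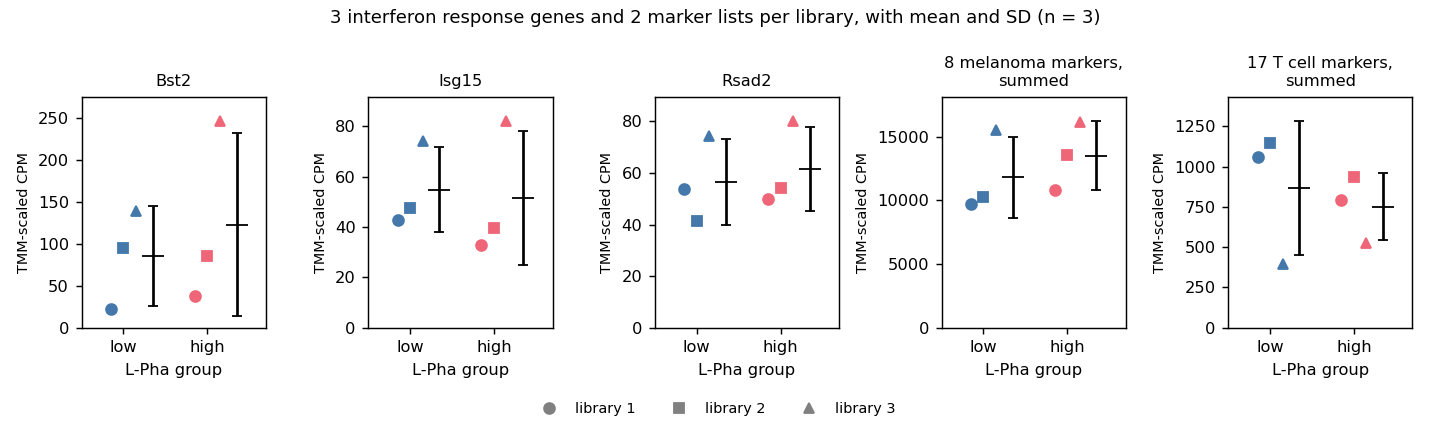
Level in CPM (y axes, each from 0) of Bst2, Isg15 and Rsad2 and the summed CPM of 8 melanoma and 17 T cell markers, with 1 point per library and the mean and SD of 3 libraries per group. In both groups the triangle of library 3 is the highest point for the 3 genes and the melanoma markers and the lowest for the T cell markers.

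Slfn2, a Schlafen family gene needed to keep T cells quiescent (ENSMUSG00000072620, chromosome 11, 83065112 to 83070678), had 35, 32 and 32.4 CPM in L-Pha low and 31.4, 30.7 and 27.7 CPM in L-Pha high. The groups were separated but by little, at a log2 fold change of -0.14 (SE 0.245, 95% interval -0.67 to 0.38). Slfn1, of the same family, had 76 counts in all and a log2 fold change of -1.02 (SE 0.559). Slfn5 had 28 counts and did not pass the count filter.

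Ifi27l2a, a small interferon-induced membrane protein gene (ENSMUSG00000079017, chromosome 12, 103442167 to 103443680), had the largest negative point value and the smallest p of the 24 tested genes. It had 62.8, 38.6 and 12.7 CPM in L-Pha low and 24.5, 11.8 and 12.3 CPM in L-Pha high. L-Pha low 1 and 2 lay above all L-Pha high libraries, and L-Pha low 3 lay among them. The log2 fold change was -1.23 (SE 0.465, 95% interval -2.22 to -0.23, edgeR adjusted p = 1), and -0.66 without L-Pha low 1. The T cell markers were also lower in L-Pha low 3 (393 CPM) than in L-Pha low 1 and 2 (1061 and 1148 CPM). In L-Pha high 1, 2 and 3 they summed to 790, 937 and 528 CPM, an order that Ifi27l2a did not follow. With the mean log2(CPM + 0.5) of the tested T cell markers, and not their sum, as a covariate, the log2 fold change of Ifi27l2a was -0.95, which was not called.

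The remaining interferon-induced genes of the set overlapped between the groups. Ifi35, a leucine zipper protein, had 28.5, 29.2 and 25.7 CPM in L-Pha low and 27.7, 44.0 and 34.3 CPM in L-Pha high (ENSMUSG00000010358, chromosome 11, 101448407 to 101458698, log2 fold change 0.34, SE 0.266). Its L-Pha high 1 lay among the L-Pha low libraries. Trim30a, a TRIM family ubiquitin ligase, differed only 1.35-fold between its highest and lowest library, and Parp14, an ADP-ribosyltransferase, 1.26-fold. The log2 fold change was -0.13 (SE 0.252) for Trim30a and 0.07 (SE 0.251) for Parp14, which was -0.01 without L-Pha low 3. Rtp4, a chaperone of membrane receptors, and Xaf1, a gene that promotes cell death, had -0.26 (SE 0.374) and 0.46 (SE 0.466), and Ifi44 had 55 counts in all and did not pass the count filter. The 3' end of Xaf1 matched 53 other genes over up to 89 bases at 97% identity or more, so its reads may be shared.

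Interferon ligands were mostly without counts. Of 21 ligand genes 18 had 0 counts in every library, which allows up to 3 counts in each, Ifnb1 had 1 count and Ifnz 3. Ifng, the T cell interferon, had 166, 84.4 and 40.3 CPM in L-Pha low and 143, 113 and 87.9 CPM in L-Pha high. The groups overlapped (log2 fold change 0.24, SE 0.386). Leaving out L-Pha low 3 turned the sign, to -0.12.

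Of 15 tested receptor and signalling genes 0 were called by edgeR and 2 (13.3%) had an unadjusted p under 0.05, both lower, against 1.97% of all tested genes. The type I receptor chain Ifnar2 had 26.2, 25.4 and 23.5 CPM in L-Pha low and 18.1, 14.8 and 19.7 CPM in L-Pha high, which were separated (log2 fold change -0.52, SE 0.274, edgeR adjusted p = 1). Ifnar1, the other chain, had 7.09 ± 1.58 CPM in L-Pha low and 5.86 ± 2.04 CPM in L-Pha high (SD, n = 3 each). Ifngr1, a receptor chain for interferon-gamma, stood at 115 ± 53.1 CPM in L-Pha low against 60.9 ± 17.7 CPM in L-Pha high (log2 fold change -0.92, SE 0.335), and Socs3, a feedback inhibitor of Jak kinases, at 19.7 ± 7.09 CPM against 9.89 ± 4.13 CPM (log2 fold change -0.99, SE 0.391). Both overlapped between groups.

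Of 54 tested entries for further interferon-stimulated genes, in which Ifi27 was entered more than once, 0 were called by edgeR. At an unadjusted p under 0.05, 5 were lower (9.26%) and 0 higher, against 1.97% and 1.82% of all tested genes. The median log2 fold change of the 54 entries was -0.07. Irf1, a factor induced by interferon-gamma, stood at 127 ± 42.1 and 111 ± 13.9 CPM. The lowest p belonged to Ly6c2, a surface marker of memory CD8 T cells and monocytes, with 128, 122 and 45.5 CPM in L-Pha low and 42.4, 37.7 and 20.7 CPM in L-Pha high. These groups were separated (log2 fold change -1.55, SE 0.373, edgeR adjusted p = 0.347). DESeq2 called Ly6c2 (adjusted p = 0.0329), as did edgeR in 4 alternatives, among them without L-Pha low 3 (adjusted p = 0.00801), and its near-identical neighbour Ly6c1 may share its reads. Epsti1 had 40.8, 35.8 and 30.2 CPM in L-Pha low and 20.5, 17.8 and 16.3 CPM in L-Pha high, also separated (log2 fold change -0.96, SE 0.266, edgeR adjusted p = 0.624). Gvin1, a large interferon-induced GTPase, had a log2 fold change of -0.73 (SE 0.252).

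Of 16 tested GTPases and chemokines that interferon-gamma induces, 0 were called by edgeR. By point value 12 stood lower in L-Pha high (75%, against 50.7% of all tested genes). Of these, 3 (18.8%, against 1.97%) had an unadjusted p under 0.05. They were Igtp, Tgtp1 and Tgtp2, and the last 2 share reads, so both shares count some reads more than once. The gene spans of Igtp and Irgm2, and of Gbp4, Gbp8 and Gbp9, overlap on the same strand, so these may share reads too. The median log2 fold change of the 16 was -0.20. Igtp, a GTPase of cell-autonomous immunity, had 29.1, 50.4 and 24.6 CPM in L-Pha low and 19.7, 16.9 and 19.0 CPM in L-Pha high, which were separated (log2 fold change -0.90, SE 0.309). Tgtp1 and Tgtp2, near-identical copies that share reads, followed at -0.84 (SE 0.295) and -0.86 (SE 0.299) on the same log2 scale.

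Of 16 tested sensors and adaptors, which start interferon production, 0 were called by edgeR, and 10 stood higher in L-Pha high by point value (49.3% of all tested genes did), 2 of them (12.5%, against 1.82%) at an unadjusted p under 0.05. Their median log2 fold change was 0.09. DESeq2 and limma-voom also called 0 in the lists of ligands, receptors, GTPases and sensors. The 2 sensor and adaptor genes at an unadjusted edgeR p under 0.05 were Irf8 and Irf5. Irf8 had 141, 130 and 69.4 CPM in L-Pha low and 217, 213 and 123 CPM in L-Pha high (log2 fold change 0.70, SE 0.300). Irf5 stood at 9.65 ± 1.2 and 18.4 ± 7.05 CPM (0.94, SE 0.362). Both overlapped between the groups, as L-Pha high 3 lay within the L-Pha low range. Tmem173, which encodes STING, had 36.9, 38.9 and 35.4 CPM in L-Pha low and 43.7, 63.9 and 44.0 CPM in L-Pha high, which were separated (log2 fold change 0.45, SE 0.252). Irf5 and Irf8 are also expressed by macrophages and dendritic cells. The 12 macrophage markers summed to 256 to 319 CPM in L-Pha low and 269 to 402 CPM in L-Pha high, with higher point values for 9 of the 10 tested. Their part in these levels was not tested.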

How the data were processed

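Gene-level read counts were deposited unnormalized. The authors obtained these counts from featureCounts 1.5.0-p3 and Ensembl release 78 gene models of GRCm38, per the file headers. Its options count sense-strand reads, every alignment of a multi-mapping read and every gene a read overlaps. Library preparation with the QuantSeq 3' kit is given per the labels. The submitters' processing notes list HISAT2 2.1.0 and cutadapt 1.7, and name the build hg19, which differs from the header. A deposited log2 table, whose scaling by the authors is not given in the sources used here, served 1 alternative. Symbols came from GENCODE M21, which named 97.33% of identifiers.

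Counts were TMM-scaled and tested over 11183 genes that passed filterByExpr in edgeR 4.0.16 under R 4.3.3, by its robust quasi-likelihood F test with L-Pha group alone in the model. Values of p were two-sided and adjusted by Benjamini-Hochberg over all tested genes, with a threshold of 0.05. Fold changes carry an SE derived from the F statistic. DESeq2 1.42.0 and limma 3.58.1 were alternatives. The steps were checked on simulated counts. No use of molecular identifiers is stated, so counting intervals cover counting error only.

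The 32 genes, their roles, the lists and the tests were chosen with earlier results of these data known. Values in every library are given for genes with an unadjusted p under 0.05, with separated groups, with the most counts of their role or with the largest change either way, and for some others chosen after their values were seen (Ifit3b, Rsad2). From each pathway list the 3 with the smallest p were named, plus Irf1, Ifnar1, Ifnar2 and Ifng and 1 gene that is not reported here. Promoters were RefSeq's, and 3' ends were compared with blastn. Alternatives changed the scaling, filter, tool, input, covariate, replicate block, near-identical genes and libraries.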

Additional observations from a re-analysis of the deposited data

How the results depend on the processing

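No alternative called any of the 24 tested interferon-stimulated genes, over 19 settings that changed scaling, filter, tool, input, covariate or libraries. Few genes of the whole table were called either. With no filter 20 were higher and 27 lower of 21866, with the replicate block 20 and 23 of 11183, and with the T cell covariate 20 and 21 of 11183. DESeq2 called 7 and 20, the fit without L-Pha low 3 called 1 and 7 of 11570, and every other setting called at most 1 gene. The smallest adjusted p was that of Ifi27l2a, 0.059 by edgeR with no filter and 0.0844 without L-Pha low 3. The median log2 fold change of -0.14 was -0.03 with library totals alone, a scaling that moved the median of all genes to 0.10, and -0.27 without both libraries numbered 3. It ran from -0.32 to -0.06 when single libraries were left out, its lowest value being that without L-Pha high 3, with -0.24 when L-Pha high 1 was left out. Isg15 turned from -0.09 to 0.01 with library totals alone, to 0.15 with the melanoma covariate, and to 0.19, 0.15 and 0.05 without L-Pha low 3, L-Pha high 1 and L-Pha high 2, and its range without single libraries was -0.60 to 0.19. Bst2 turned to -0.48 without L-Pha high 3 (range -0.48 to 1.07), and Ifng to -0.12 without L-Pha low 3 (range -0.12 to 0.88). Of the further interferon-stimulated genes 1, Ly6c2, was called with no filter, by DESeq2, with the replicate block and with the T cell covariate, where the count was 1 each, and leaving out single libraries gave 0 to 1, with 1 without L-Pha low 3. The cause of these changes was not tested.

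The labels do not say that a number marks a shared pool, so the libraries were not treated as pairs. The correlations below cannot decide it, since deviations from a mean of 3 libraries are not independent of each other. Deviations of same-numbered libraries from their group means correlated at 0.368, 0.0825 and 0.467 across 11183 genes, and L-Pha low 2 correlated best with L-Pha high 1 (0.126), while libraries 1 and 3 of L-Pha low did so with their own number, which is a hint from the data and not from the design. With the replicate number as a block, 20 genes were called higher and 23 lower over all genes, against 0 and 1, and 0 of the interferon-stimulated genes were called. At an unadjusted edgeR p under 0.05 the blocked fit held 5 of the 24, against 2 without the block. They were Oasl2, Zbp1, Ddx58 and Ifi27l2a, which were lower, and Bst2, which was higher. The share of all genes at that level was not counted for the blocked fit. Ifi27l2a had the smallest adjusted p of the 24 in it, 0.169. The stricter filter left 21 of the 24 genes and gave no value for Isg20, Slfn1 and Oasl2. The melanoma covariate and the fit without both libraries numbered 3 were chosen after seeing the data. Low counts limit the OAS and Mx genes, since 8 of the 32 genes did not pass the count filter, and with no filter none of the 8 was called.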
